A study of Mus musculus with 6 samples.

Results

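The natriuretic peptide and cyclic GMP genes described here are Npr1, Npr2, Npr3, Gucy1a1, Gucy1b1, Nos1, Nos3, Pde5a, Prkg1 and Prkg2. They were chosen by symbol, and all 10 were found among the 18849 genes of the table. RNA sequencing of whole obstructed kidneys gave 6 libraries. The mice were C57BL/6 males aged 8 weeks, and their kidneys had been obstructed for 14 days by unilateral ureteral obstruction (UUO), a surgical model of kidney scarring. Knockout mice (c-Abl Epi-cKO, 3 libraries, genotype label c-Abl knockdown) carried c-Abl loxP/loxP alleles and a Ksp-Cre transgene, which deletes the tyrosine kinase gene Abl1 in tubular epithelial cells. Floxed mice (c-Abl flox/flox, 3 libraries, genotype label WT) were obstructed in the same way. The comparison addresses what tubular deletion of c-Abl does to transcripts of the obstructed kidney, and unobstructed kidneys were not analysed here. The labels do not tie libraries to individual animals, so the spread behind every p-value is that between libraries and may be technical. Ksp-Cre is driven by the promoter of Cdh16, a cadherin of tubule epithelium, whereas most of the 10 genes are known mainly from vessels, glomeruli and stroma.

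Cyclic GMP is a second messenger that relaxes vascular smooth muscle and mesangial cells, promotes salt excretion and restrains scar formation. It is made by receptor guanylate cyclases when a natriuretic peptide binds, and by soluble guanylate cyclase when nitric oxide binds. Protein kinases G carry the signal on, phosphodiesterases end it, and the clearance receptor removes the peptides.

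Values are FPKM, fragments scaled to the length of the gene and to all mapped fragments of the library. Differences are log2 fold changes of FPKM + 1, knockout minus floxed, and they understate the change of low genes. They were tested with limma over the 13390 genes that reached 1 FPKM in 3 or more libraries, two-sided, with a threshold of 0.05 on the Benjamini-Hochberg adjusted p. The spacing of low values put the depth at about 16050000 to 18000000 fragments per library. Abl1 read 10.46, 14.45 and 12.91 FPKM in knockout replicates 1, 2 and 3, against 18.16, 15.93 and 17.33 FPKM in floxed replicates 1, 2 and 3. Its difference did not pass the test (limma adjusted p = 0.144), and Cdh16 averaged 321 ± 61.0 FPKM in knockout and 216 ± 17.3 FPKM in floxed kidneys (SD, n = 3 each, limma adjusted p = 0.118). Knockout replicate 3 stood apart from its group: on the principal component with 61.8% of the variance it lay at -7.48, knockout replicates 1 and 2 at 54.1 and 37.4, and the floxed libraries between -29.0 and -26.2. Where a call on a named gene turns on it, the value without it is given too. An adjusted p depends on all tested genes, of which 3271 passed without that library. It can therefore fall while a gene's own unadjusted p does not. For Npr3, Prkg1, Abcc5, Pde9a and Ddah1 the unadjusted limma p rose without that library while the adjusted p fell. These were the only such cases among the 10 genes and the named pathway genes that passed without it. The median log2 fold change of all tested genes was -0.12, and median-ratio scaling moved it to 0.02, so values of the 10 genes are to be read against that shift.

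None of the 10 genes passed the adjusted threshold, which 0.0672% of tested genes did, 0.0373% as lower. Npr3, Gucy1a1 and Gucy1b1 came close, all with a limma adjusted p of 0.0547, a value that 1.46% of tested genes shared or undercut, and were 5.33-fold, 3.56-fold and 2.68-fold lower in mean FPKM in knockout kidneys. In 5 of the 10 genes (Npr3, Gucy1a1, Gucy1b1, Pde5a and Prkg1) every knockout library lay below every floxed library. Such a gap in that direction was found in 21.7% of tested genes. The same 5 genes were lower at an unadjusted limma p under 0.05, as were 16.3% of tested genes. Nos1 was too low to be tested, and Prkg1 and Prkg2 entered the test through the 3 floxed libraries and knockout replicate 3 alone, so the counts describe these genes and support nothing by themselves. Without knockout replicate 3, 6 of them passed as lower (those 5 and Prkg2), and 0 as higher, beside 15.4% and 9.02% of tested genes. Without floxed replicate 1 only Npr3 passed (limma adjusted p = 0.0357), while 13 of all 13390 tested genes did, 11 of them as lower. That library had the lowest Npr3 of the floxed group, so leaving it out widened the Npr3 difference. Knockout replicate 3 was left out after it was seen to lie close to the floxed libraries, so the counts without it are no independent support.

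**Figure D1:**
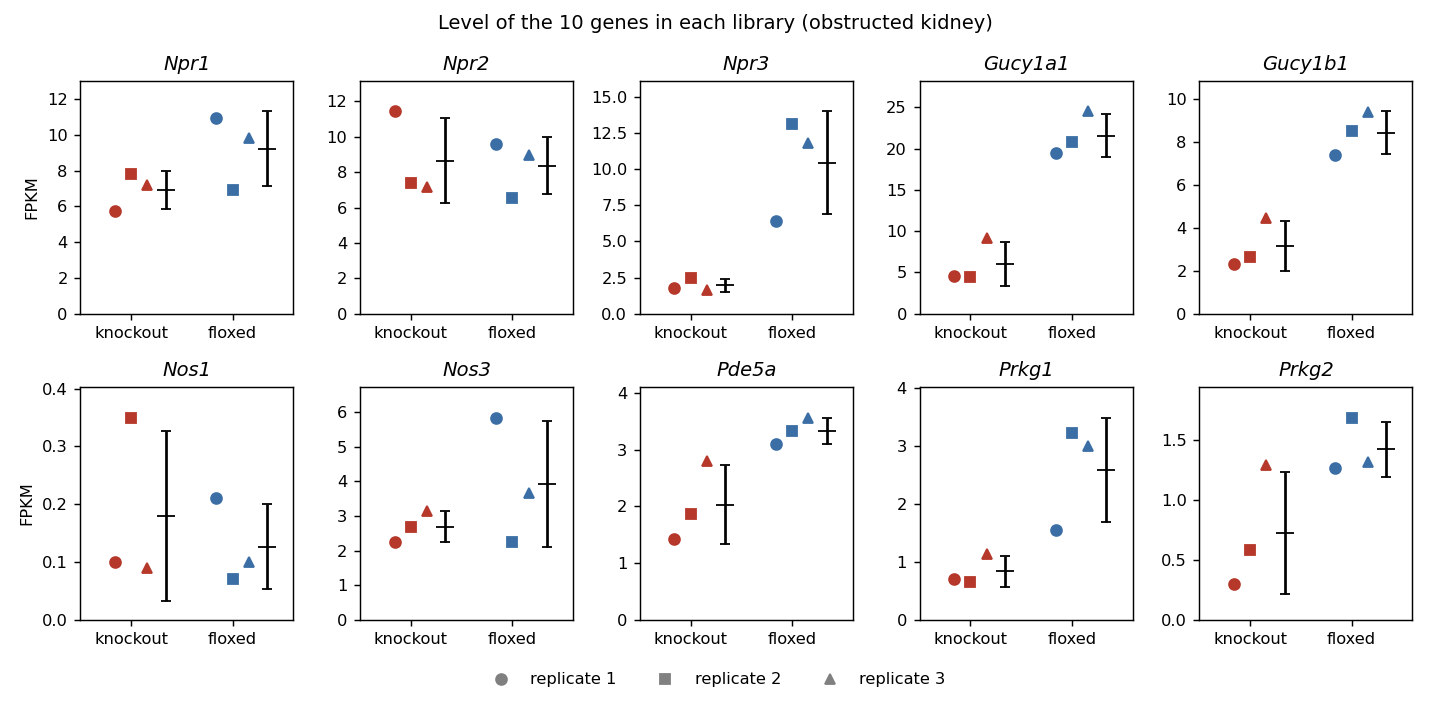
FPKM of each of the 10 genes (one panel each, axes from 0) in the 3 knockout and the 3 floxed libraries, with symbols for the replicates and a bar for mean ± SD. Npr3, Gucy1a1, Gucy1b1, Pde5a and Prkg1 show no overlap between the groups, whereas Npr1, Npr2, Nos1, Nos3 and Prkg2 do overlap.

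The DNA next to the start sites of 4 genes is shown because they hold the 3 largest differences and the receptor that Npr3 is set against. Npr3 and Npr1 are the clearance and the signalling receptor of the same peptides. Gucy1a1 and Gucy1b1 encode the chains of a single enzyme and are neighbours on chromosome 3, with no protein-coding gene between them in RefSeq. Each sequence is the 150 bases before a RefSeq start, from RefSeq on build GRCm38.p6, which is not the build of the FPKM values (mm9). All 4 lie on the minus strand and read 5′ to 3′ toward the gene. The bases just after the start were looked up in the gene's transcripts in GENCODE, a second gene catalogue. They were found there for Npr1, Gucy1a1 and Gucy1b1 but not for Npr3, so the Npr3 start is less certain. Capitals mark GGGCGG and CCAAT, searched on both strands, so that they also appear as CCGCCC and ATTGG.
Npr3, chr15:11907372-11907521: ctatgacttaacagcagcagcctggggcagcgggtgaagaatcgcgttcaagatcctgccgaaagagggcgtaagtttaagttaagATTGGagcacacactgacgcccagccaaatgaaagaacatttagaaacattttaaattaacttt
Npr1, chr3:90465867-90466016: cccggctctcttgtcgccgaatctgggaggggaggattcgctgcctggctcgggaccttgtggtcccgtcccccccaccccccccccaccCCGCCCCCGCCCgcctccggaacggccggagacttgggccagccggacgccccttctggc
Gucy1a1, chr3:82145074-82145223: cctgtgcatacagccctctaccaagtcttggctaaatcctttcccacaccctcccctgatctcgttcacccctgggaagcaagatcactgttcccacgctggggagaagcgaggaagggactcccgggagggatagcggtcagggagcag
Gucy1b1, chr3:82074712-82074861: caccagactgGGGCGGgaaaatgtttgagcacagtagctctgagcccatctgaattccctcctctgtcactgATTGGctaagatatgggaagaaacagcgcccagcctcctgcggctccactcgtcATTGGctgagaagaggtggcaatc
The RefSeq table held 10 such windows for 8 of the 10 genes, a second one each for Gucy1a1 and Prkg1 among them. GGGCGG, a GC box, occurred in 4 of the 10 windows and in 28.9% of all 32475 windows of that length. CCAAT occurred in 3 of the 10, against 24.4% of all windows. Gucy1b1 had it at 2 places and Npr3 at 1, while the Gucy1a1 window printed here held neither motif. The CArG box of smooth muscle genes (0.918% of all windows), TATAAA (7.55%) and CTTTGAT, a form of the site of Wnt-responsive TCF/LEF factors (1.79%), occurred in 0 of the 10. No searched motifs overlapped one another in the printed windows. A match is only a run of letters, and the absence of one says nothing about binding elsewhere.

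Of the receptors, the clearance receptor showed the largest difference of the 10 genes. Npr3, which binds natriuretic peptides and takes them up without making cyclic GMP, read 1.78, 2.49 and 1.61 FPKM in knockout replicates 1, 2 and 3, against 6.41, 13.12 and 11.81 FPKM in floxed replicates 1, 2 and 3. All knockout libraries were low, replicate 3 the lowest of them, and the lowest floxed library still read 6.41 FPKM. The mean was 1.96 ± 0.467 FPKM in knockout and 10.4 ± 3.56 FPKM in floxed kidneys (SD, n = 3 each), a log2 fold change of -1.91 (SE 0.266, limma adjusted p = 0.0547), lower than in all but 0.224% of tested genes. Without knockout replicate 3 the log2 fold change was -1.82 (SE 0.303, limma adjusted p = 0.0112), but the unadjusted limma p rose from 0.000188 to 0.000911. Leaving out knockout replicate 1 or 2, or floxed replicate 2 or 3, gave limma adjusted p-values of 0.153 to 0.213. Leaving out floxed replicate 1, the floxed library with the lowest Npr3, gave 0.0357. In the kidney Npr3 is known from podocytes and vessels. The 6 podocyte markers summed here, Nphs1, Podxl and Wt1 among them, came to 64.3, 91.5 and 70.3 FPKM in knockout replicates 1, 2 and 3, against 132, 94.9 and 134 FPKM in floxed replicates 1, 2 and 3. The groups did not overlap, and none of the markers was at 0 FPKM in every library. All 6 had a log2 fold change below 0 with a median of -0.64, while 65.4% of all tested genes were below 0. At an unadjusted limma p under 0.05, 5 were lower, beside 16.3% of all tested genes. The part of podocytes in the Npr3 difference was not tested. In whole tissue, fewer cells of a type and less RNA per cell cannot be told apart.

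The signalling receptors differed less. Npr1, the guanylate cyclase receptor for atrial and brain natriuretic peptide, read 5.77, 7.82 and 7.22 FPKM in knockout replicates 1, 2 and 3, against 10.96, 6.93 and 9.84 FPKM in floxed replicates 1, 2 and 3. Floxed replicate 2 lay inside the knockout range, and the log2 fold change of -0.36 had a 95% interval of -0.81 to 0.10 (limma adjusted p = 0.287). Npr2, the receptor for C-type natriuretic peptide, read 11.44, 7.39 and 7.15 FPKM in knockout replicates 1, 2 and 3, against 9.6, 6.52 and 8.99 FPKM in floxed replicates 1, 2 and 3. Its groups overlapped, with a log2 fold change of 0.03, a 95% interval of -0.48 to 0.55 (limma adjusted p = 0.935) and a sign that turned with TPM scaling. The intervals still allow a modest difference in either receptor.

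The balance of clearance to signalling receptor was lower in every knockout library than in any floxed one. The FPKM of Npr3 divided by that of Npr1 was 0.308, 0.318 and 0.223 in knockout replicates 1, 2 and 3, against 0.585, 1.89 and 1.20 in floxed replicates 1, 2 and 3. The floxed libraries were spread widely, and floxed replicate 1 stood well under the others. On the log2 scale of FPKM + 1 the ratio differed by -1.55, with an exact two-sided permutation p of 0.1, the smallest that 3 against 3 libraries allow. The 3 ratios tested here had Benjamini-Hochberg adjusted exact permutation p-values of 0.15, 0.15 and 0.2 (Npr3 to Npr1, Gucy1a1 to Gucy1b1, Prkg1 to Prkg2).

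Both chains of soluble guanylate cyclase, the nitric oxide receptor of smooth muscle, pericytes and stromal cells, read lower in every knockout library than in any floxed one, without passing the adjusted threshold. Gucy1a1, the alpha chain, read 4.56, 4.49 and 9.13 FPKM in knockout replicates 1, 2 and 3, against 19.45, 20.81 and 24.52 FPKM in floxed replicates 1, 2 and 3. Knockout replicate 3 stood well above the other knockout libraries, yet stayed under every floxed library. The mean was 6.06 ± 2.66 FPKM in knockout and 21.6 ± 2.62 FPKM in floxed kidneys (SD, n = 3 each), a log2 fold change of -1.73 (SE 0.254, limma adjusted p = 0.0547). Without knockout replicate 3 it was -2.03 (limma adjusted p = 0.00278).

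Gucy1b1, the beta chain that binds the haem group, read 2.32, 2.65 and 4.47 FPKM in knockout replicates 1, 2 and 3, against 7.4, 8.48 and 9.38 FPKM in floxed replicates 1, 2 and 3. It showed the same picture as its partner, with knockout replicate 3 the highest of its group and floxed replicate 3 the highest of all. The mean was 3.15 ± 1.16 FPKM in knockout and 8.42 ± 0.991 FPKM in floxed kidneys (SD, n = 3 each), a log2 fold change of -1.21 (SE 0.214, limma adjusted p = 0.0547, and 0.00432 without knockout replicate 3). Gucy1a1 over Gucy1b1 was 1.97, 1.69 and 2.04 in knockout replicates 1, 2 and 3, against 2.63, 2.45 and 2.61 in floxed replicates 1, 2 and 3, so the alpha chain exceeded the beta chain per length in every library, by less in the knockout ones. The ratio averaged 1.90 ± 0.183 in knockout and 2.57 ± 0.0968 in floxed kidneys (SD, n = 3 each), and its log2 difference on the FPKM + 1 scale was -0.52 (exact two-sided permutation p = 0.1). It stayed between -0.59 and -0.44 when any 1 library was left out.

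**Figure D2:**
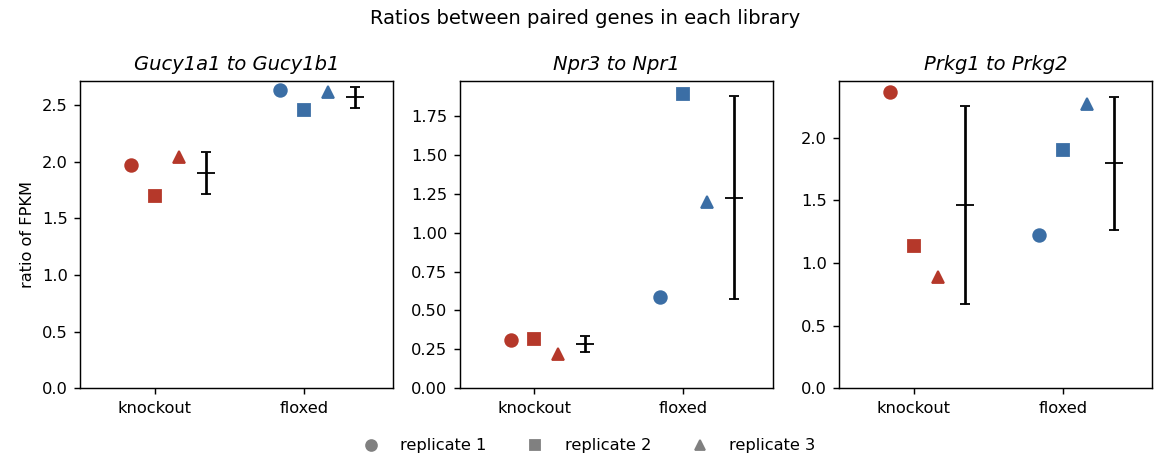
Ratio of FPKM between Gucy1a1 and Gucy1b1, Npr3 and Npr1, and Prkg1 and Prkg2 in each knockout and floxed library, on axes from 0, with mean ± SD bars. In the panels of Gucy1a1 to Gucy1b1 and of Npr3 to Npr1 the knockout libraries lie below all floxed libraries, while Prkg1 to Prkg2 overlaps.

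Summed markers of cells in which soluble guanylate cyclase is known were lower in every knockout library than in any floxed one, though not every single marker was. The 13 smooth muscle and pericyte markers, led by Myh11, Cnn1 and Tagln, summed to 119.6, 121 and 230.4 FPKM in knockout replicates 1, 2 and 3, against 324, 252 and 366 FPKM in floxed replicates 1, 2 and 3. Of these, 12 had a log2 fold change below 0, as did 65.4% of all tested genes, and none was at 0 FPKM in every library. At an unadjusted limma p under 0.05, 6 were lower, beside 16.3% of all tested genes. The next markers were named after their values were seen. The groups did not overlap for Tagln, Smtn, Des, Pdgfrb and Notch3, and overlapped for the others, Myh11, Acta2 and Rgs5 among them. Abcc9 went the other way, at 1.82 FPKM in knockout and 1.20 FPKM in floxed kidneys on average. The 9 fibroblast markers, led by Pdgfra, Dcn and Lum, summed to 108, 89.9 and 255 FPKM in knockout replicates 1, 2 and 3, against 397, 418 and 495 FPKM in floxed replicates 1, 2 and 3. All 9 had a log2 fold change below 0, as did 65.4% of all tested genes, with a median log2 fold change of -1.38. At an unadjusted limma p under 0.05, 7 were lower, beside 16.3% of all tested genes. The adjusted limma threshold was passed by 1 of the 9, and as lower by 0.0373% of all tested genes. The groups overlapped for Lum and for Cd34, which was named after its values were seen. The 7 macrophage markers summed to 282 to 518 FPKM in knockout and 626 to 891 FPKM in floxed libraries. The part of these cells in the differences of Gucy1a1, Gucy1b1, Pde5a and Prkg1 was not tested. Within the knockout group, replicate 3 had the highest marker sums in these 3 lists and the lowest Npr3, while its podocyte sum lay between those of replicates 1 and 2.

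**Figure D3:**
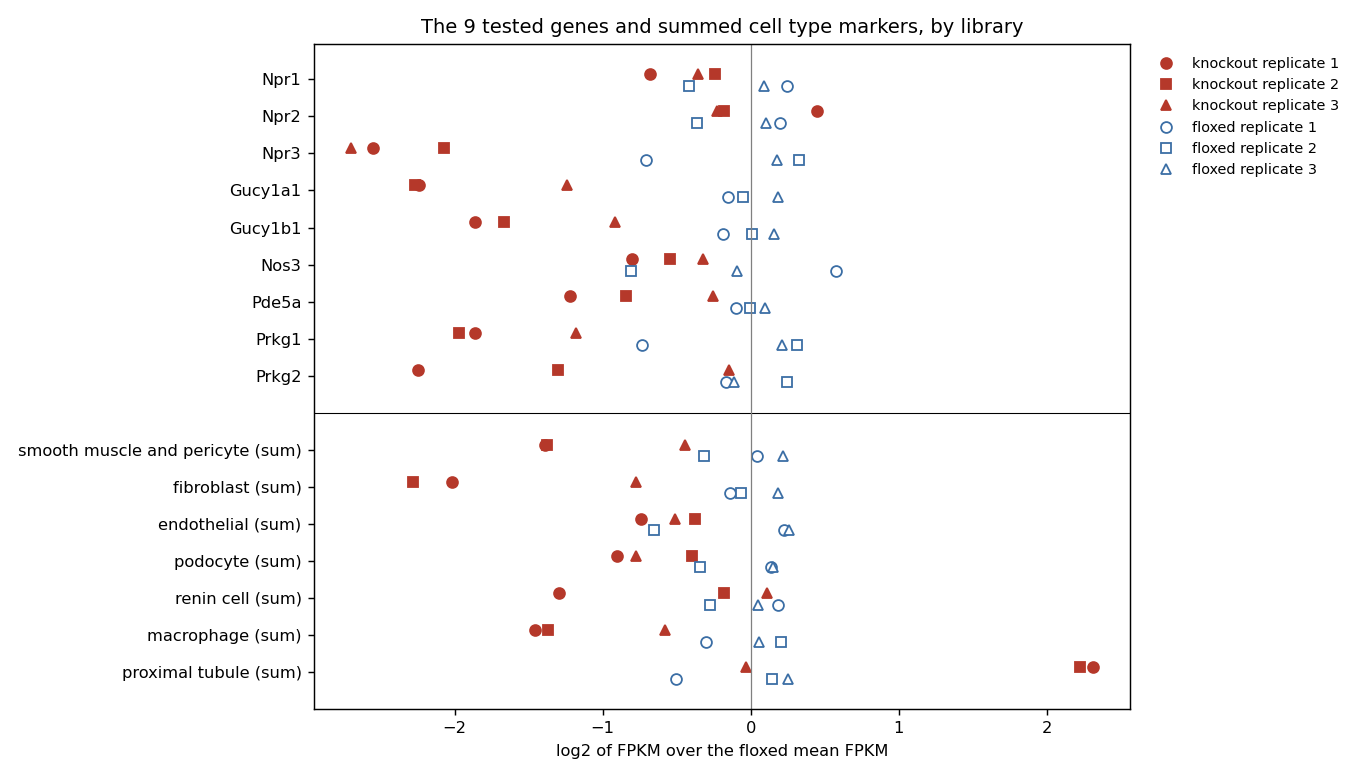
Log2 of FPKM over the floxed mean FPKM for the 9 tested genes (above the line) and for summed markers of 7 cell types (below it), with filled symbols for knockout and open symbols for floxed libraries. Knockout replicate 3 (filled triangles) lies nearest the floxed libraries for Gucy1a1, Gucy1b1, Pde5a, Prkg1 and Prkg2 and for the smooth muscle, fibroblast and macrophage markers, and farthest from them for Npr3.

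The nitric oxide synthases gave no difference beyond the spread. Nos3, the endothelial enzyme, read 2.25, 2.69 and 3.13 FPKM in knockout replicates 1, 2 and 3, against 5.84, 2.24 and 3.67 FPKM in floxed replicates 1, 2 and 3. Floxed replicate 2 was the lowest of all libraries and floxed replicate 1 the highest, and the log2 fold change was -0.35 (95% interval -1.01 to 0.30, limma adjusted p = 0.438). That interval still allows a difference in Nos3. The 11 endothelial markers, led by Pecam1, Cdh5 and Kdr, summed to 124, 160 and 146 FPKM in knockout replicates 1, 2 and 3, against 242, 132 and 249 FPKM in floxed replicates 1, 2 and 3. Floxed replicate 2 was thus also the low floxed library for that cell type, and the part of these cells was not tested. Nos1, the neuronal enzyme, which in the kidney marks the macula densa, lay between 0.09 and 0.35 FPKM in knockout and between 0.07 and 0.21 FPKM in floxed libraries. At this depth that is about 13 to 58 fragments per library over its longest coding transcript. Nos1 stayed under 1 FPKM in every library and so was not tested. The 7 macula densa and thick limb markers, led by Slc12a1 and Umod, summed to 774 to 1161 FPKM in knockout and 517 to 723 FPKM in floxed libraries. Umod alone read 608 to 929 FPKM in knockout and 434 to 581 FPKM in floxed libraries, so it made up most of these sums. Of the 6 markers that could be tested, 4 were above and 2 below 0, while 65.4% of all tested genes were below 0. Among the 7 markers Pappa2, singled out after its values were seen, was as scarce as Nos1, at most 0.36 FPKM in knockout and 0.25 FPKM in floxed libraries. Ptgs2 read 0.27 to 1.90 FPKM in knockout and 1.33 to 2.70 FPKM in floxed libraries.

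Pde5a, the cyclic GMP phosphodiesterase that sildenafil blocks, read 1.43, 1.86 and 2.80 FPKM in knockout replicates 1, 2 and 3, against 3.11, 3.33 and 3.57 FPKM in floxed replicates 1, 2 and 3. The groups did not overlap, but knockout replicate 3 came close to the lowest floxed library. The mean was 2.03 ± 0.701 FPKM in knockout and 3.34 ± 0.230 FPKM in floxed kidneys (SD, n = 3 each). Its log2 fold change was -0.54 (SE 0.194, limma adjusted p = 0.156), and -0.72 without knockout replicate 3 (limma adjusted p = 0.0248).

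The kinases that answer cyclic GMP were low in both groups. Prkg1, protein kinase G type I of smooth muscle, platelets and mesangial cells, read 0.71, 0.66 and 1.14 FPKM in knockout replicates 1, 2 and 3, against 1.55, 3.21 and 2.99 FPKM in floxed replicates 1, 2 and 3. The groups did not overlap, with means of 0.837 ± 0.264 FPKM in knockout and 2.58 ± 0.902 FPKM in floxed kidneys (SD, n = 3 each). The log2 fold change was -0.94 (SE 0.237, limma adjusted p = 0.0929), and -1.05 without knockout replicate 3 (limma adjusted p = 0.0323). Its type I alpha and beta isoforms start at different promoters and are not separated in these values. Prkg2, the membrane-bound type II kinase, which restrains renin release in the juxtaglomerular cells, read 0.30, 0.58 and 1.29 FPKM in knockout replicates 1, 2 and 3, against 1.27, 1.69 and 1.32 FPKM in floxed replicates 1, 2 and 3. Knockout replicate 3 lay within the floxed range while the others were far below it. The log2 fold change was -0.53 (SE 0.237, limma adjusted p = 0.221), and -0.76 without knockout replicate 3 (limma adjusted p = 0.0334). Without that library Prkg1 and Prkg2 reached 1 FPKM in the floxed libraries alone, the group where they were high. Their adjusted p-values without it therefore support nothing by themselves. The renin cell markers Ren1, Akr1b7 and Rgs5 summed to 21.9, 47.3 and 57.9 FPKM in knockout replicates 1, 2 and 3, against 61.1, 44.3 and 55.6 FPKM in floxed replicates 1, 2 and 3. They too were lowest in knockout replicate 1, while knockout replicates 2 and 3 lay within the floxed range, and their part was not tested. The ratio of Prkg1 to Prkg2 was 2.37, 1.14 and 0.884 in knockout replicates 1, 2 and 3, against 1.22, 1.90 and 2.27 in floxed replicates 1, 2 and 3, with full overlap and an exact two-sided permutation p of 0.2.

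**Figure D4:**
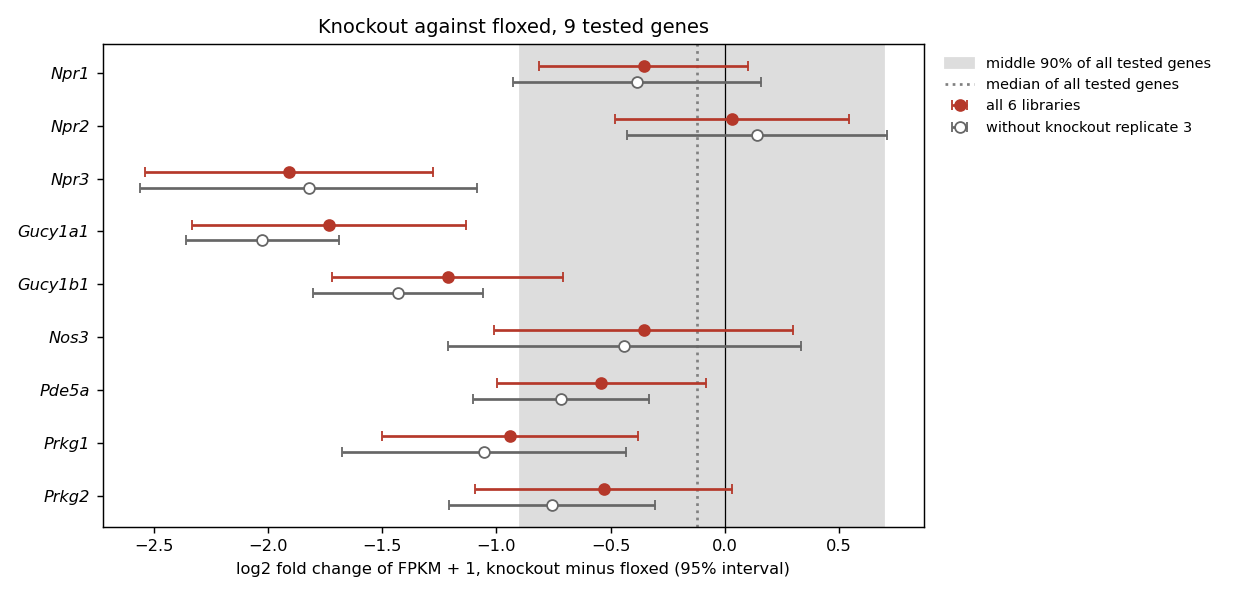
Log2 fold change of FPKM + 1, knockout minus floxed, with its 95% interval for the 9 tested genes, with all 6 libraries (filled) and without knockout replicate 3 (open). The band spans the middle 90% of all tested genes, and Npr3, Gucy1a1, Gucy1b1 and Prkg1 lie left of its lower end of -0.90.

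The genes were ranked by mean FPKM, which is scaled to gene length. In knockout kidneys Npr2, Npr1 and Gucy1a1 were the highest, at 8.66 ± 2.41, 6.94 ± 1.05 and 6.06 ± 2.66 FPKM (SD, n = 3 each). Gucy1b1, Nos3, Pde5a and Npr3 followed at 3.15, 2.69, 2.03 and 1.96 FPKM, then Prkg1, Prkg2 and Nos1 at 0.837, 0.723 and 0.180 FPKM. In floxed kidneys Gucy1a1 stood alone at the top with 21.6 ± 2.62 FPKM, followed by Npr3, Npr1, Gucy1b1 and Npr2 at 10.4 ± 3.56, 9.24 ± 2.08, 8.42 ± 0.991 and 8.37 ± 1.63 FPKM (SD, n = 3 each). Nos3, Pde5a, Prkg1, Prkg2 and Nos1 followed at 3.92, 3.34, 2.58, 1.43 and 0.127 FPKM. In the knockout order, neighbours within the top 3, within the next 4 genes and between Prkg1 and Prkg2 lay closer than the larger of their SDs. In the floxed order this held for the 4 genes after Gucy1a1 and for Nos3, Pde5a and Prkg1. Npr3 held the 2nd place in floxed and the 7th in knockout kidneys.

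The genes whose log2(FPKM + 1) over the 6 libraries ran closest to each of the 9 tested genes were looked up among all tested genes. Pearson's r describes only 6 points in 2 groups, so it reflects the group difference in large part. Gucy1a1 ran closest to P3h3, a collagen prolyl hydroxylase family member, and to Eml1, a microtubule-binding protein (r = 0.999 each). For Gucy1b1 these were Olfml3 and Mxra7 (r = 0.999 each), for Pde5a the receptor tyrosine kinase Axl and Map7d1 (0.999 and 0.998), and for Prkg1 the integrin chain Itgb5 and the collagen-binding receptor Antxr1 (0.998 and 0.997). Olfml3 read 11.96, 13.88 and 25.85 FPKM in knockout replicates 1, 2 and 3, against 46.47, 58.71 and 68.23 FPKM in floxed replicates 1, 2 and 3, the same order of libraries as Gucy1b1. Npr3 ran with Rasl11b and Zbtb40 (0.993 and 0.988), and Rasl11b, a small GTPase, read 17.68, 20.6 and 17.22 FPKM in knockout replicates 1, 2 and 3, against 30.8, 41.37 and 35.61 FPKM in floxed replicates 1, 2 and 3. Nos3 ran with Ctla2a and the calcium pump Atp2b4 (0.998 and 0.994), and Npr1 with the adaptor She and Vps37a (0.996 and 0.993). Npr2 ran with Apol9a and Spc24 (0.980 and 0.979) and Prkg2 with the interferon-induced Ifitm2 and Ifitm1 (0.998 and 0.997).

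Other genes of the pathway were listed by role under 74 symbols, Mrvi1 also under its newer name Irag1. Of these symbols 70 were in the table and 46 could be tested. None passed the adjusted threshold, 8 were higher and 8 lower at an unadjusted limma p under 0.05, and the median log2 fold change was -0.08, beside -0.12 over all tested genes. That median turned to 0.06 with median-ratio and 0.03 with quantile scaling and to 0.05 with a mean FPKM of at least 5. Across all tested genes, 8.38% were higher and 16.3% lower at that p. In 7 of the 46 every knockout library lay above every floxed one, and in 9 below, against 10% and 21.7% of all tested genes. Without knockout replicate 3, 7 passed as higher and 13 as lower, beside 9.02% and 15.4% of tested genes.

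The natriuretic peptides themselves were scarce. Nppa, Nppb and Nppc, the precursors of atrial, brain and C-type peptide, which were singled out after their values were seen, lay between 0 and 0.43 FPKM in knockout and between 0 and 0.43 FPKM in floxed libraries, too low to test. The guanylin peptides, which act on salt transport in gut and kidney, were expressed. Guca2a (guanylin) read 3.20, 9.12 and 7.05 FPKM in knockout replicates 1, 2 and 3, against 3.08, 1.34 and 2.24 FPKM in floxed replicates 1, 2 and 3. Knockout replicate 1 was only just above the highest floxed library, and the log2 fold change was 1.16 (SE 0.358, limma adjusted p = 0.125). Guca2b (uroguanylin) averaged 435 ± 164 FPKM in knockout and 257 ± 37.6 FPKM in floxed kidneys (SD, n = 3 each, limma adjusted p = 0.203, and 0.0150 without knockout replicate 3). Of the ligand and processing genes 6 could be tested, and all 6 were above 0 with a median log2 fold change of 0.31, while 65.4% of all tested genes were below 0. Gucy2c, the receptor for the guanylins in the gut, was among the cyclases too low to test, at most 0.06 FPKM in knockout and 0.12 FPKM in floxed libraries, and was likewise singled out after its values were seen.

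Of the other cyclases only Gucy1a2, another alpha chain of soluble guanylate cyclase, could be tested. It read 0.48, 0.46 and 0.80 FPKM in knockout replicates 1, 2 and 3, against 1.51, 1.39 and 2.18 FPKM in floxed replicates 1, 2 and 3. As with Gucy1a1, no knockout library reached the floxed range and replicate 3 was the highest of each group, with a log2 fold change of -0.76 (SE 0.186, limma adjusted p = 0.0870, and 0.0255 without knockout replicate 3). It reached 1 FPKM in the 3 floxed libraries alone and so entered the test through the group where it was high, and its gap between the groups supports nothing by itself.

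Among 17 tested genes of nitric oxide supply 9 were above and 8 below 0, with a median log2 fold change of 0.00. At an unadjusted limma p under 0.05, 5 were higher and 2 lower, and in 3 every knockout library lay above every floxed one, against 1 below. Of the higher ones, Ass1 and Asl, which remake arginine from citrulline, were named after their values were seen. Ass1 read 1093, 822 and 209 FPKM in knockout replicates 1, 2 and 3, against 117, 210.1 and 193 FPKM in floxed replicates 1, 2 and 3 (limma adjusted p = 0.145, and 0.00456 without knockout replicate 3). Asl averaged 98.1 ± 38.3 FPKM in knockout and 46.8 ± 3.59 FPKM in floxed kidneys (SD, n = 3 each, limma adjusted p = 0.128, and 0.00345 without knockout replicate 3). Nostrin, which binds endothelial nitric oxide synthase and directs its trafficking, averaged 2.76 ± 1.31 FPKM in knockout and 6.18 ± 0.813 FPKM in floxed kidneys (SD, n = 3 each, limma adjusted p = 0.0930, and 0.00574 without knockout replicate 3). Ddah1, which breaks down the synthase inhibitor asymmetric dimethylarginine, averaged 48.3 ± 9.45 FPKM in knockout and 30.6 ± 4.31 FPKM in floxed kidneys (SD, n = 3 each, limma adjusted p = 0.104, and 0.0404 without knockout replicate 3). The 9 proximal tubule markers, led by Slc34a1, Lrp2 and Slc5a2, summed to 2935, 2765 and 578 FPKM in knockout replicates 1, 2 and 3, against 416, 653 and 705 FPKM in floxed replicates 1, 2 and 3. Ass1, Asl and Ddah1 are known from proximal tubule, and the part of these cells was not tested.

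Among the other phosphodiesterases and exporters 4 were above and 6 below 0, while 65.4% of all tested genes were below 0. Pde3a, which cyclic GMP inhibits and which degrades cyclic AMP in vessels, read 1, 1.35 and 1.97 FPKM in knockout replicates 1, 2 and 3, against 3.86, 4.58 and 5.16 FPKM in floxed replicates 1, 2 and 3. All knockout libraries lay well below the floxed ones, with a log2 fold change of -1.19 (SE 0.193, limma adjusted p = 0.0547, and 0.00605 without knockout replicate 3). Abcc5, an exporter of cyclic nucleotides, read 13.04, 14.38 and 13.15 FPKM in knockout replicates 1, 2 and 3, against 23.68, 20.02 and 22.63 FPKM in floxed replicates 1, 2 and 3. Here the 3 knockout libraries were alike, replicate 3 included, and the log2 fold change was -0.67 (SE 0.116, limma adjusted p = 0.0547, and 0.0154 without knockout replicate 3). Of the 10 tested genes in this role 1 was higher and 3 lower at an unadjusted limma p under 0.05, beside 8.38% and 16.3% of all tested genes. The remaining lower one, Pde2a, which cyclic GMP stimulates, and the higher one, Pde9a, which is specific for cyclic GMP, were named after their values were seen. Pde2a averaged 7.02 ± 1.30 FPKM in knockout and 13.3 ± 0.666 FPKM in floxed kidneys (SD, n = 3 each, limma adjusted p = 0.0547, and 0.00551 without knockout replicate 3). Pde9a averaged 18.4 ± 5.79 FPKM in knockout and 7.54 ± 3.66 FPKM in floxed kidneys (SD, n = 3 each, limma adjusted p = 0.0979, and 0.0392 without knockout replicate 3).

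Among 12 tested substrates and effectors of the kinases, 9 were below 0, beside 65.4% of all tested genes, with a median log2 fold change of -0.30. Mrvi1, also called Irag1, through which protein kinase G type I restrains calcium release in smooth muscle, read 0.83, 1.09 and 1.87 FPKM in knockout replicates 1, 2 and 3, against 3.54, 3.66 and 5.86 FPKM in floxed replicates 1, 2 and 3. It showed no overlap and a log2 fold change of -1.24 (SE 0.243, limma adjusted p = 0.0635, and 0.0103 without knockout replicate 3). Hspb6, a small heat shock protein that the kinases phosphorylate in smooth muscle, went the other way, at 7.38 ± 1.21 FPKM in knockout and 4.88 ± 0.606 FPKM in floxed kidneys (SD, n = 3 each, limma adjusted p = 0.131).

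**Figure D5:**
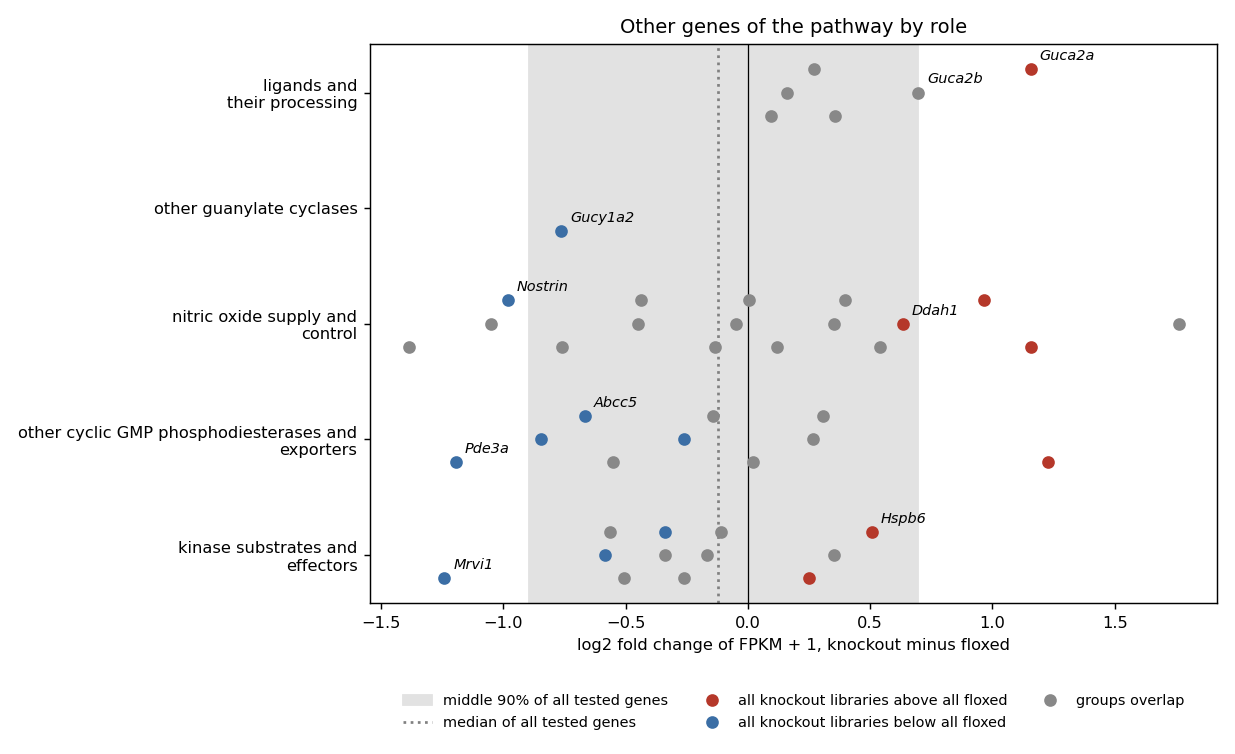
Log2 fold change of FPKM + 1, knockout minus floxed, of the 46 tested pathway genes by role, coloured by whether the knockout libraries lie wholly above or below the floxed ones, with the 2 smallest p in each role named. The band is the middle 90% of all tested genes. In the phosphodiesterase row Pde3a at -1.19 lies to the left of it and Pde9a, not labelled, at 1.23 to the right.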

How the data were processed

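Per the file headers, the deposited values are FPKM, which the authors computed for each gene in each library, and they carry 2 decimals. Per the submitters' processing notes, the genome build was mm9. Aligner, annotation, counting tool, filters and strand use were not given in the sources used here, so reads of overlapping genes cannot be told apart. Groups came from sample titles. No pair of libraries was identical. Symbols turned into dates (26) were restored by Entrez identifier. The 13390 genes that reached 1 FPKM in 3 or more of the 6 libraries were compared as log2(FPKM + 1) with limma 3.58.1 in R 4.3.3 (group alone in the model, variance trend on, Benjamini-Hochberg at 0.05), after tests on simulated data. Ratios had exact permutation tests (scipy 1.17.1, Python 3.11.15). Depth was estimated from low values, of which 65.7% to 69.4% lay within 0.2 of a whole fragment (40% if spread evenly). It is approximate. The 10 genes and all lists were chosen with earlier results of these data known. Named were the 10 genes, Abl1, Cdh16, the 2 smallest p per pathway role, any pathway gene past the threshold, the 2 closest patterns per tested gene and the first 3 markers per list. Adrenal, heart and nerve, urothelium and collecting duct markers were also summed. From the marker lists, 1 gene is not reported here and is in no sum. Alternatives changed filter, pseudocount, scaling, variance model, weights, pairing and libraries.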

Additional observations from a re-analysis of the deposited data

How the results depend on the processing

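Over all genes, 9 passed limma's adjusted threshold. The count was 1 without a filter, with mean FPKM of at least 5, with a pseudocount of 0.1 or 0.01, with median-ratio or quantile scaling and without the mean-variance trend, 10 with TPM scaling and 1456 with array weights, whose fit stopped short of its convergence tolerance. Leaving out 1 library at a time gave 0 to 3271 genes, with the most without knockout replicate 3 and 0 without floxed replicate 2 or 3 (2298 and 2146 at an unadjusted limma p under 0.05). Of the 10 genes described, 0 passed with the settings of the report (5 at an unadjusted p under 0.05), 4 with array weights (Gucy1a1, Gucy1b1, Npr3 and Prkg1), 0 in the other settings that keep all libraries, and 0 to 6 when 1 library was left out. Of the pathway genes 0 passed (16 at an unadjusted p under 0.05), 11 with array weights and 0 to 20 when 1 library was left out. The cause of these shifts was not tested. Npr2 turned to -0.020 with TPM scaling, to -0.16 without knockout replicate 1 and to -0.12 without floxed replicate 2, in a range of -0.16 to 0.14 when 1 library was left out. The other 8 tested genes stayed below 0 in every alternative, Npr3 between -2.37 and -1.69, Gucy1a1 between -2.03 and -1.58 and Gucy1b1 between -1.47 and -1.01. The differences of all 3 ratios kept their sign. Libraries of the same number shared only that number: their deviations from the group means had correlations across genes of -0.126, -0.0699 and 0.0341. With the replicate block 2 genes passed over all genes, 0 of the 10 and 0 of the pathway genes. Adrenal markers summed to at most 2.40 FPKM in knockout and 2.04 FPKM in floxed libraries, and heart and nerve markers to at most 4.15 FPKM in knockout and 5.51 FPKM in floxed libraries. Urothelial markers summed to 5.65 to 54.5 FPKM in knockout and 23.1 to 89.5 FPKM in floxed libraries. Collecting duct markers summed to 155 to 603 FPKM in knockout and 79.9 to 145 FPKM in floxed libraries. Low levels limit Nos1, Prkg1 and Prkg2 most.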
